A study of Homo sapiens with 3 samples.

Results

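The genes described here build the machinery that starts and carries out DNA replication: the origin recognition complex, the factors that load and activate the replicative helicase, the polymerases with their clamp and clamp loader, and the proteins that join, coat, feed and protect the fork. They were taken by name from a list of 49 replication genes. All 49 were found in the 3 library tables, and all 49 reached at least 1 CPM (the read count of a gene scaled to a common library size) in at least 1 library, so 49 of the 13922 genes tested belong to the list.

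Before S phase, the origin recognition complex (ORC), CDC6 and CDT1 place the ring-shaped MCM helicase on chromatin in an inactive form, and geminin blocks CDT1 afterwards so that no origin is licensed again in the same cycle. At the start of S phase the kinase CDC7 with its activator DBF4, together with cyclin-dependent kinases, converts the loaded ring into the active helicase by adding CDC45 and the GINS complex. DNA polymerase alpha with primase starts each strand, polymerases epsilon and delta extend the leading and the lagging strand, and PCNA, loaded by replication factor C, holds them on DNA. Many of these genes are known targets of E2F transcription factors and are transcribed mainly around the G1/S transition, so their RNA in a culture also depends on how its cells are spread over the cell cycle. In bulk RNA such as this, fewer cells in a phase and less RNA per cell cannot be told apart.

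The study measured RNA from UM-UC-3 cells, an established human bladder cancer line, after transfection for 48 h with 75 nM of a negative control siRNA (1 library) or of an siRNA against NONO (2 libraries, each with a different siRNA). NONO is a nuclear RNA- and DNA-binding protein known from paraspeckles, from splicing and from transcription. Both NONO siRNAs were labelled as a single group, and each is compared with the same lone control library, so a chance deviation of that library enters both folds. Whether the libraries come from separate cultures is not given in the labels. The p-values here rest on the spread between the 2 NONO libraries, since the lone control library adds none. That spread may be technical, and it also holds any difference between the 2 siRNAs. The read totals were 27681990 for the control, 29408573 for siRNA 1 and 28594569 for siRNA 2. NONO itself stood at 823 CPM in the control, 79.5 CPM with siRNA 1 and 104 CPM with siRNA 2, and its fall passed the test (log2 fold -3.17, SE 0.24, adjusted p = 0.00698, limma). That call was lost when no filter on low values was applied (adjusted p = 0.566, limma), a setting in which no gene was called. Of 15 urothelial and epithelial markers, 6 passed the 1 CPM filter: KRT8 stood at 77.1, 43.0 and 85.4 CPM and KRT18 at 110.5, 49.0 and 93.3 CPM, in the order control, siRNA 1, siRNA 2, while GATA3, PPARG, FOXA1 and TP63 were at or under 5.71 CPM. The other 9, which include KRT5, UPK3A, EPCAM and CDH1, reached at most 0.442 CPM where listed, and 5 of them were in no table. Leukocyte markers passed the filter for 1 of 6 genes (ITGAM, at most 1.30 CPM), fibroblast markers for 4 of 6 (summed level 28.1, 16.8 and 19.2 CPM), and endothelial markers for 2 of 6, of which TIE1 stood at 55.7, 15.4 and 30.2 CPM.

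The siRNA sequences are shown because several members below carry matches to one of them. The labels give 1 strand of each siRNA, and its complement, which pairs with the target, was derived from it. The capitals mark bases 2 to 8, the stretch through which an siRNA can also pair with other transcripts.
control siRNA, labelled strand: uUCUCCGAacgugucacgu
NONO siRNA 1, labelled strand: gGCGAAGUcuucauucaua
NONO siRNA 1, complement: uAUGAAUGaagacuucgcc
NONO siRNA 2, labelled strand: gCAUCCCUuacaguucgaa
NONO siRNA 2, complement: uUCGAACUguaagggaugc
Both labelled NONO strands were found in full in transcripts of NONO and of AC092115.1 in the GENCODE 29 annotation. Neither strand of the control siRNA was found in full in any annotated transcript.

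No replication gene was called higher or lower after NONO knockdown. With limma on log2(CPM + 1), called at a Benjamini-Hochberg adjusted p under 0.05 over all 13922 genes, 0 of 49 members were higher, where 0.136% of all genes were, and 0 of 49 were lower, where 0.079% were. At an unadjusted p under 0.05, 1 of 49 members was higher (TIMELESS), against 6.95% of all genes, and 0 were lower, against 4.45%. The quasi-likelihood test of edgeR and DESeq2, run on the reads recovered from the CPM values, also called 0 members, with TIMELESS the sole member at an unadjusted p under 0.05 in each. The 95% interval of a member's fold reached from 0.47 to 1.04 to either side on the log2 scale, with a median of 0.56, and the smallest absolute log2 fold that limma called for any gene was 1.48. In DESeq2 that smallest called fold was 0.98, and over the settings tried it ran from 0.84 to 3.19. The interval held 0 for 48 of the 49 members.

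More members stood above the control than below it. Both knockdown libraries lay above the control for 27 of 49 members, or 55.1%, where this held for 37.8% of all genes, and both lay below it for 11 members, or 22.4%, where this held for 34.5%. The other 11 members had 1 knockdown library on each side. The median log2 fold over the members was 0.04 with siRNA 1 and 0.15 with siRNA 2, against 0.03 and 0.01 over all genes tested. Summed over the 49 genes, the level was 5022 CPM in the control, 5077 CPM with siRNA 1 and 5659 CPM with siRNA 2. The 95% counting interval of the ratio to the control lay above 1 for 21 members and below 1 for 13 with siRNA 1, where it did for 35.2% and 31.1% of all genes. With siRNA 2 it lay above 1 for 31 members and below 1 for 7, where it did for 33.6% and 31.9% of all genes. Such intervals cover counting error only, not the spread between cultures. Whether an interval leaves out 1 also depends on the number of reads. The members stood at 9.32 to 494 CPM in the control, while genes tested went down to 0.0722 CPM there. The shares of all genes are not matched for level. In the annotation used, 21 members share at least 50 exon bases with another gene. How reads in the shared bases were assigned is not known. The strand setting is not given, and for POLA2, PRIM1, POLD1, POLD3 and RRM2 a partner lies on the same strand. Of these same-strand partners, only that of POLD3 is among the genes in all 3 tables.

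Few members moved far with either siRNA. A change of 1.5-fold or more on the CPM + 1 scale is used here as a rule of size, with no test. With siRNA 1, 1 of 49 members lay that far above the control (TIMELESS), where 10% of all genes did, and 1 lay that far below it (ORC4), where 9.09% did. With siRNA 2, 2 members lay that far above (TIMELESS and GINS4), where 9.98% of all genes did, and 0 lay that far below, where 6.89% did. Just inside this threshold was GINS4 with siRNA 2, at a log2 fold of 0.66, and just outside it was RRM1 with siRNA 2, at 0.58. Between the knockdown libraries, 0 members were 1.5-fold higher with siRNA 1 than with siRNA 2, where 4.11% of all genes were, and 2 were 1.5-fold lower (ORC4 and RRM2), where 6.92% were. The shares of all genes are not matched for level here either.

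**Figure D1:**
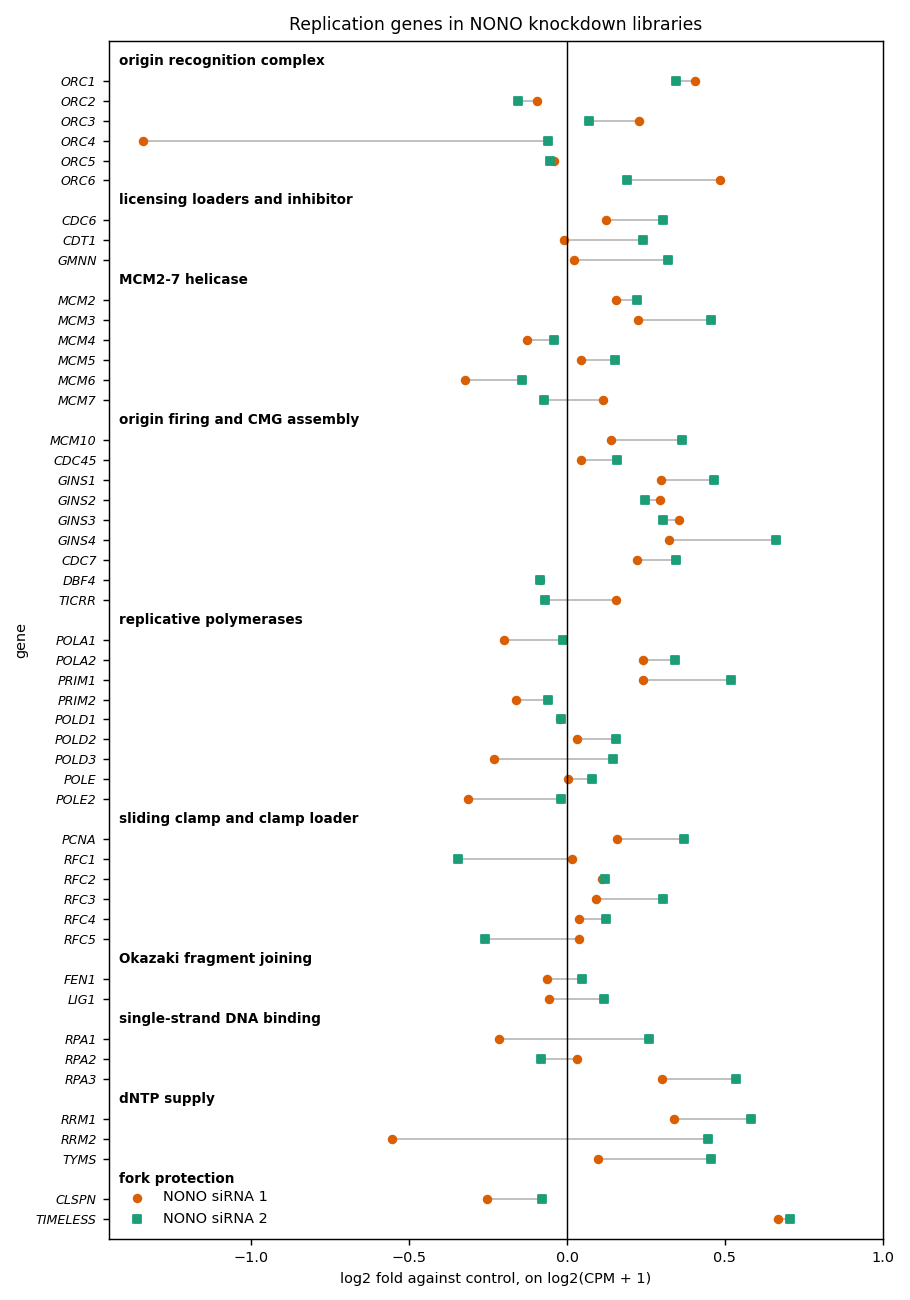
Log2 fold of each of the 49 replication genes against the control library, on the log2(CPM + 1) scale, grouped by role; circles are the siRNA 1 library, squares the siRNA 2 library, and a line joins the values of a gene. TIMELESS lies to the right of 0 at 0.67 and 0.71, ORC4 and RRM2 have the longest lines, and most other genes lie within 0.5 of the control.

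Among the 6 subunits of ORC, which marks origins, 3 stood above the control in both knockdown libraries and 3 below. ORC1, the ATPase subunit that is degraded and remade each cycle, stood at 39.1 CPM in the control, 52.1 CPM with siRNA 1 and 49.9 CPM with siRNA 2. In the same order, here and below, ORC6, a small subunit that joins the core loosely, stood at 38.7, 54.6 and 44.3 CPM, and ORC3 at 47.4, 55.7 and 49.8 CPM. In these 3 genes both knockdown libraries were above the control, with mean log2 folds between 0.15 and 0.38, none past the test. ORC2 stood at 71.3, 66.7 and 64.0 CPM and ORC5 at 38.8, 37.7 and 37.4 CPM, so both lay slightly below the control. The remaining subunit, ORC4, stood apart with siRNA 1 and is described with the differences between the siRNAs.

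The factors that load the helicase showed a larger value with siRNA 2 than with siRNA 1. This is not particular to them: the median log2 fold over all members was 0.04 with siRNA 1 and 0.15 with siRNA 2. Over all genes tested it was 0.03 and 0.01. CDC6, the ATPase that works with ORC to load MCM rings, stood at 93.2, 102 and 115 CPM. CDT1, which brings the MCM ring to ORC, stood at 40.2, 40.0 and 47.7 CPM. GMNN, which encodes the CDT1 inhibitor geminin, stood at 54.7, 55.5 and 68.5 CPM. Loader and inhibitor thus lay at or near the control with siRNA 1 and above it with siRNA 2, at log2 folds of 0.24 to 0.32, and adjusted p-values ran from 0.792 to 0.911.

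The MCM genes encode the 6 subunits of the helicase ring, of which 3 lay above the control in both knockdown libraries, 2 below and 1 between. MCM2 stood at 202 CPM in the control, 225 CPM with siRNA 1 and 236 CPM with siRNA 2, MCM3 at 152, 178 and 209 CPM, and MCM5 at 177, 183 and 197 CPM. These 3 lay above the control in both knockdown libraries, MCM3 by log2 folds of 0.23 and 0.45. MCM6 stood at 139.7, 111 and 126 CPM and MCM4 at 404, 371 and 393 CPM. Both genes lay below the control in both libraries, MCM6 by log2 folds of -0.32 and -0.14. MCM7 stood at 494, 535 and 469.9 CPM, above the control with siRNA 1 and below it with siRNA 2. Summed over the ring, the level was 1569, 1603 and 1631 CPM, and the lowest adjusted p among the 6 genes was 0.642 (MCM3).

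Of the genes for origin firing and the assembly of the active helicase, 7 of 9 lay above the control in both knockdown libraries, where 37.8% of all genes did, with a median log2 fold of 0.22 with siRNA 1 and 0.30 with siRNA 2. All 4 GINS genes, whose products form the ring's essential partner complex, were among them. GINS1 stood at 70.8, 87.3 and 98.0 CPM. GINS2 stood at 15.0, 18.6 and 17.98 CPM and GINS3 at 19, 24.6 and 23.7 CPM. GINS4 (ENSG00000147536) stood at 19.4, 24.6 and 31.3 CPM. In each of the 4 genes the control was the lowest library, by log2 folds of 0.29 to 0.36 with siRNA 1 and 0.25 to 0.66 with siRNA 2. The 95% counting intervals of all 8 ratios lay above 1, where those of 35.2% of all genes did with siRNA 1 and 33.6% with siRNA 2. These ratios share the lone control library and so are not independent. None of the 4 genes passed the test, the lowest adjusted p being 0.564 for GINS4. The GINS3 3' UTR holds 1 match to bases 2 to 8 of the control siRNA's labelled strand, found in 1.99% of the genes searched, whose median log2 folds were 0.18 and 0.14 with the match and 0.01 and -0.01 without. GINS4 holds 1 match to the siRNA 2 complement, found in 4.59% of the genes searched. The part of these matches in the values was not tested.

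CDC45, the third part of the active helicase, stood at 43.6, 45.1 and 48.8 CPM, and MCM10, which is needed for the helicase to start unwinding, at 59.3, 65.3 and 76.6 CPM. The kinase gene CDC7 stood at 50.5, 59.0 and 64.3 CPM. DBF4, its activating subunit, stood at 102, 96.4 and 96.4 CPM, just below the control in both libraries. TICRR, which encodes treslin, a factor that brings CDC45 to origins, stood at 43.4, 48.4 and 41.3 CPM, with 1 knockdown library on each side of the control.

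The 9 replicative polymerase genes were spread evenly around the control, with 4 above it in both libraries, 4 below it in both and 1 mixed. Polymerase alpha-primase is the complex that lays down primers. POLA2, the accessory subunit, stood at 50.5, 59.9 and 64.3 CPM, and PRIM1, the catalytic primase subunit, at 31.9, 37.9 and 46.1 CPM. POLA1, the catalytic polymerase subunit, stood at 89.4, 77.6 and 88.6 CPM, and PRIM2, the large primase subunit, at 46.0, 41.1 and 44.1 CPM. POLA2 and PRIM1 lay above the control in both libraries, with PRIM1 at log2 folds of 0.24 and 0.52, and POLA1 and PRIM2 lay below it in both. POLA2 shares 35.1% of its exon bases with AP000944.2 on the same strand, so its value is uncertain.

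In the polymerases that extend the strands, most values were close to the control. POLD1, the catalytic subunit of polymerase delta, stood at 104, 102 and 102 CPM, and POLE, the catalytic subunit of polymerase epsilon, at 162, 162 and 171 CPM. The accessory subunit genes POLD2 and POLD3 stood at 179.9, 184 and 200.3 CPM and at 125, 106 and 139 CPM, and POLE2 stood at 31.3, 24.99 and 30.9 CPM. POLD3 was thus below the control with siRNA 1 and above it with siRNA 2, at log2 folds of -0.23 and 0.14, and POLE2 was below it mainly with siRNA 1, at -0.31 and -0.02.

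PCNA, the sliding clamp and a common marker of proliferating cells, stood at 309 CPM in the control, 345 CPM with siRNA 1 and 399.6 CPM with siRNA 2. The control was the lowest of the 3 libraries, and the mean log2 fold was 0.26 with an SE of 0.21 (adjusted p = 0.713, limma). Of the 5 clamp loader genes, 3 lay above the control in both libraries. RFC2 stood at 49.9, 53.9 and 54.3 CPM, RFC3 at 53.8, 57.4 and 66.5 CPM and RFC4 at 44.5, 45.7 and 48.5 CPM, all above the control in both libraries. RFC1, the large subunit, stood at 94.4, 95.4 and 74.1 CPM, and RFC5 at 53.7, 55.1 and 44.7 CPM. RFC1 and RFC5 were near the control with siRNA 1 and lay below it with siRNA 2, at log2 folds of -0.34 and -0.26. The 3' UTR of RFC5 also holds 1 of the siRNA 2 seed matches described with the siRNA strands, whose part in its value was not tested. RFC5 shares 186 exon bases with WSB2 on the opposite strand, whose level was 262, 242 and 189 CPM, and since the strand setting of the counting is not given, its value is uncertain.

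The genes that finish and coat the lagging strand showed small and mixed differences. FEN1, the flap nuclease that trims Okazaki fragments, stood at 149, 143 and 154 CPM, and LIG1, the ligase that joins them, at 82.7, 79.4 and 89.8 CPM. Both lay just below the control with siRNA 1 and just above it with siRNA 2. Among the subunits of RPA, which coats single-stranded DNA, RPA1 stood at 178 CPM in the control, 153 CPM with siRNA 1 and 214 CPM with siRNA 2. RPA2 stood at 56.9, 58.2 and 53.7 CPM, and RPA3 at 9.32, 11.7 and 13.95 CPM. RPA1 therefore had its knockdown libraries on opposite sides of the control, and RPA3, which had the fewest reads of any member (258 in the control), had both above it.

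The supply of deoxynucleotides contained a strong divergence between the siRNAs. RRM1, the large subunit of ribonucleotide reductase, stood at 129 CPM in the control, 164 CPM with siRNA 1 and 194 CPM with siRNA 2. Its mean log2 fold of 0.46 with an SE of 0.23 did not pass the test (adjusted p = 0.506, limma). TYMS, thymidylate synthase, stood at 27.8, 29.8 and 38.5 CPM. TYMS shares 967 exon bases, 39.1% of its exons, with ENOSF1 on the opposite strand, which stood at 29.3, 34.8 and 30.04 CPM, so its value is uncertain as well. RRM2, the small subunit of the reductase, is described next.

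RRM2 (ENSG00000171848, chr2:10120698-10131419 on the plus strand in GENCODE 29, GRCh38) stood at 340.5 CPM in the control, 231 CPM with siRNA 1 and 464 CPM with siRNA 2. The knockdown libraries thus lay on opposite sides of the control, at log2 folds of -0.56 and 0.45, and the siRNA 1 value was 0.499 times the siRNA 2 value (95% counting interval 0.484 to 0.514). With 9425, 6802 and 13264 reads behind these values, counting error is small beside the gap, which has no replicate check because each siRNA has 1 library. RRM1, the other subunit of the enzyme, was above the control with both siRNAs. RRM2 shares 20.2% of its exon bases with AC007240.1 on the same strand. No seed match of any siRNA strand was found in the annotated RRM2 3' UTR.

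ORC4 (ENSG00000115947, chr2:147930397-148021604 on the minus strand, same annotation) stood at 41.0 CPM in the control, 15.5 CPM with siRNA 1 and 39.3 CPM with siRNA 2. The siRNA 1 library was the low one, at 0.379 times the control (95% counting interval 0.340 to 0.423), while the ratio with siRNA 2 was 0.959 (0.882 to 1.04), whose interval holds 1. The log2 folds were -1.34 and -0.06, and the fit over both libraries gave -0.70 with an SE of 0.46 (adjusted p = 0.626, limma). The 3' UTR of the ORC4 transcript ORC4-214, 5113 bases long, holds 2 matches to bases 2 to 8 of the siRNA 1 complement. The first is shown here with its flanks, the match in capitals, because ORC4 is the member that differed most between the siRNAs, and beside it are those of MCM6, the other member with 2.
ORC4 3' UTR, match at base 31: ctttggcatttCATTCATacttctgtaga
MCM6 3' UTR, match at base 160: cctatgtgtcaCATTCATcacaggtttca
MCM6 3' UTR, match at base 884: acaacagatggCATTCATtaaatcacaaa
The level of MCM6 was 0.798 times the control with siRNA 1. CDC6, ORC2 and RPA1 hold 1 each, and their log2 folds with siRNA 1 were 0.12, -0.10 and -0.22. In all, 5 of 49 members (10.2%) hold the match, against 15.1% of the 11506 genes searched. Over the genes searched, the median log2 fold with siRNA 1 was -0.12 with a match and 0.03 without, and with siRNA 2 it was 0.03 and -0.01. A match is a description of the letters, and its part in the ORC4 value was not tested. A match to the labelled strand of siRNA 2 is held once each by the 3' UTRs of ORC4, POLA1, RFC5 and RPA2. Their log2 folds with siRNA 2 were -0.06, -0.01, -0.26 and -0.08, and with siRNA 1 they were -1.34, -0.20, 0.04 and 0.03. These genes are 8.16% of members, against 12.9% of the genes searched. Over the genes searched, the median log2 fold with siRNA 2 was -0.022 with this match and -0.0035 without. With the whole transcript searched, as for TIMELESS below, 11 of 49 members hold the siRNA 1 complement match. That is 22.4%, against 22.9% of the genes searched. The siRNA 2 complement match is then held by 8 members (GINS4, MCM4, MCM7, POLE, RFC1, RFC4, RFC5 and TICRR), 16.3% against 10.9%. Their median log2 fold with siRNA 2 was -0.055, against 0.22 for members without it. Over the genes searched it was -0.069 and 0.0028. The part of these matches was not tested either.

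**Figure D2:**
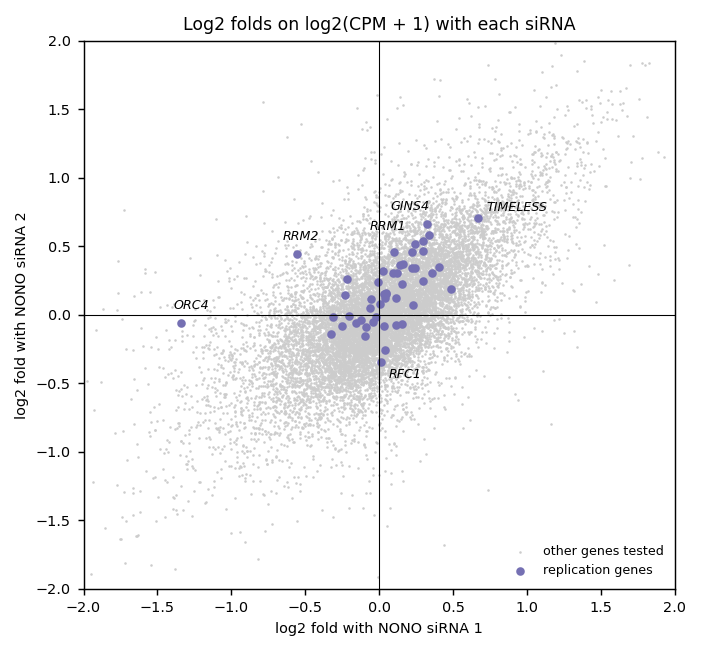
Log2 fold with NONO siRNA 1 (horizontal) against log2 fold with NONO siRNA 2 (vertical), both on the log2(CPM + 1) scale and against the same control library; each dot is a gene, replication genes in purple, and 44 genes beyond 2 on either axis are not drawn. ORC4 lies far left at -1.34 and -0.06, RRM2 in the upper left at -0.56 and 0.45, and TIMELESS in the upper right.

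TIMELESS (ENSG00000111602, chr12:56416373-56449403 on the minus strand), a subunit of the fork protection complex that couples helicase and polymerase, was the member with the largest shift shared by both siRNAs. It stood at 90.4 CPM in the control, 144 CPM with siRNA 1 and 148 CPM with siRNA 2, from 2502, 4241 and 4232 reads. Both knockdown libraries lay well above the control and close to each other, at ratios of 1.596 (95% counting interval 1.52 to 1.68) and 1.64 (1.56 to 1.72). The mean log2 fold was 0.69 with an SE of 0.23, the unadjusted p was 0.0146 and the adjusted p 0.276 (limma), so it did not pass the test over all genes. With edgeR the adjusted p was 0.356 and with DESeq2 0.452. The TIMELESS transcript holds 1 match to bases 2 to 8 of the control siRNA's labelled strand, outside the 3' UTR. With the whole transcript searched, a choice made after seeing the data, 5 of 49 members hold such a match (TIMELESS, GINS3, MCM2, ORC1 and POLE2), or 10.2%, against 11.6% of the genes searched. Over the genes searched, genes with such a match had a median log2 fold of 0.16 with siRNA 1 and 0.11 with siRNA 2, and those without had 0.00 and -0.02, and the part of this match in the TIMELESS value was not tested. TIPIN, its binding partner and no member of the list, stood at 23.3, 35.3 and 33.5 CPM (adjusted p = 0.475). CLSPN, which encodes claspin, the third fork protection factor, stood at 75.5, 63.1 and 71.3 CPM, below the control in both libraries.

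Levels of different genes can be compared only per length. Per kilobase of merged exons in the control, MCM7 was highest in the helicase ring at 113 CPM per kb, followed by MCM4 at 58.0, MCM3 at 41.6, MCM2 at 41.2, MCM6 at 33.9 and MCM5 at 24.2. MCM3 and MCM2 differ by little. PCNA stood at 210.1 CPM per kb, against 14.1 to 22.6 for the 5 RFC genes that load it. GINS1 stood at 17.4, against 3.55 to 4.59 for the other GINS genes. ORC4 was the lowest of the ORC genes at 4.60 in the control and 1.74 with siRNA 1, against 8.99 to 12.8 for the others in the control. With the length of the principal transcript in place of merged exons, a choice made after seeing the data, several levels moved by over 1.5 times. In the ring MCM7 came to 167 CPM per kb, MCM4 to 96.7, MCM2 to 55.8, MCM5 to 50.2, MCM3 to 47.4 and MCM6 to 37.4, which changes the order after MCM4. PCNA came to 227 against 19.4 to 32.4 for the RFC genes, GINS1 to 21.8 against 5.06 to 8.36 for the other GINS genes, and ORC4 to 6.11 against 12.4 to 23.8 for the other ORC genes.

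**Figure D3:**
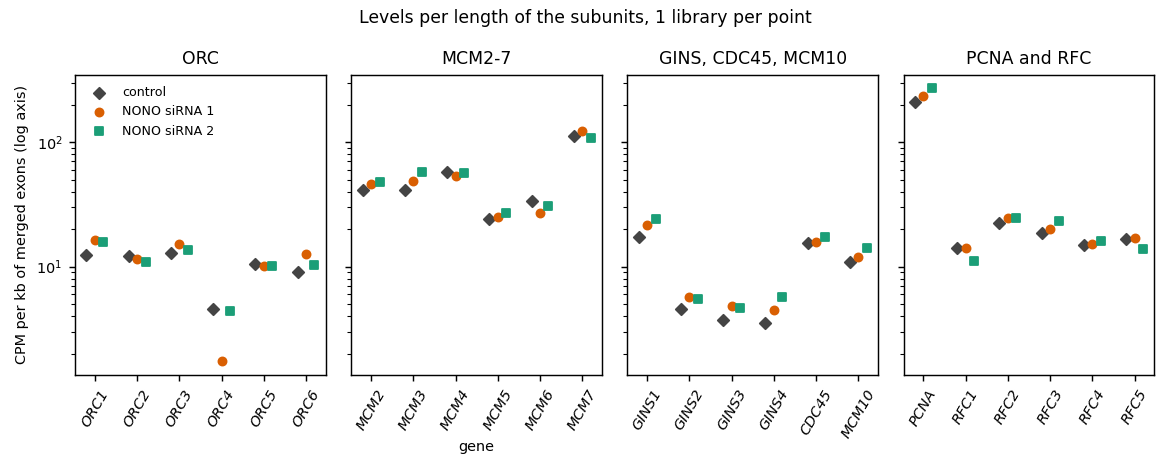
Level per kilobase of merged exons (CPM per kb, log axis) of the subunits of 4 assemblies, with diamonds for the control, circles for siRNA 1 and squares for siRNA 2, 1 library a point. MCM7, GINS1 and PCNA are the highest of their panels in the control at 113, 17.4 and 210.1, and the siRNA 1 point of ORC4 lies at 1.74.

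A feature that the choice of members did not use is the E2F-type sequence at their starts. RefSeq promoter windows, from 250 bases before to 50 bases after the gene start in GRCh38.p14, were held for 43 of the 49 members. The motif was searched as TTTCCCGC, TTTCGCGC, TTTGCCGC or TTTGGCGC on either strand, counting overlapping matches. It was present in 19 of 43 member windows (44.2%), against 5.45% of 10205 windows of tested genes and 3.33% of all 27305 windows. Windows with at least 2 matches were those of MCM2, MCM3, MCM6 and MCM7, 9.3% of members against 0.274% of tested genes. The 2 matches of MCM2, at 3 and 7 from the start, overlap in 1 stretch. The windows of MCM3 and MCM6 are printed because these subunits of the same ring lay on opposite sides of the control, and those of GINS1, GINS2 and GINS3 because these genes lay above it with both siRNAs. The capitals mark the motif, and all windows are written along the gene's own strand.
MCM3, chr6:52284693-52284992, minus strand: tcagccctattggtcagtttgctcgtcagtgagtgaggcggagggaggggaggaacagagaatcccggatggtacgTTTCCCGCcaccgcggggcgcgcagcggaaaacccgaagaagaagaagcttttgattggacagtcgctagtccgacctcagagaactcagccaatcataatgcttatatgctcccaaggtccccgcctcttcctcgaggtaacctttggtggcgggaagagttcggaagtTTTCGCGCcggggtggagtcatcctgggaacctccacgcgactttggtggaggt
MCM6, chr2:135876394-135876693, minus strand: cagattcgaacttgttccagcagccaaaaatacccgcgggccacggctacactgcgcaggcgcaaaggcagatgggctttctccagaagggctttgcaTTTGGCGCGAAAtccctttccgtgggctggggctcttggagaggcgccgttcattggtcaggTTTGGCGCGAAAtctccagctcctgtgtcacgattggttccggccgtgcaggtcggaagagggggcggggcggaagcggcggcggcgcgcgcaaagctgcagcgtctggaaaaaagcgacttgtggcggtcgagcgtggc
GINS1, chr20:25407423-25407722, plus strand: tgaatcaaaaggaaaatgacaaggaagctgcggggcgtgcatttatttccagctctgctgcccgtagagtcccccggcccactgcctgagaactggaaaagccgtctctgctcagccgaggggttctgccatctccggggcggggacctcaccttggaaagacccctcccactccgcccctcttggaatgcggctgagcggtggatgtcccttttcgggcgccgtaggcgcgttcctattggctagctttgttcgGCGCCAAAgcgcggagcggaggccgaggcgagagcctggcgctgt
GINS2, chr16:85688905-85689204, minus strand: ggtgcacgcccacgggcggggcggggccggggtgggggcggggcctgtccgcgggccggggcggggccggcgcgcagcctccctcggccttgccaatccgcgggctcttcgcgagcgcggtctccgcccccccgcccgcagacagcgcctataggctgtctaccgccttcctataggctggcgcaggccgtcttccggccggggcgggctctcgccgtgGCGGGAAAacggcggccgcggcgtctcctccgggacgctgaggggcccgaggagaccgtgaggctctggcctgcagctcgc
GINS3, chr16:58392221-58392520, plus strand: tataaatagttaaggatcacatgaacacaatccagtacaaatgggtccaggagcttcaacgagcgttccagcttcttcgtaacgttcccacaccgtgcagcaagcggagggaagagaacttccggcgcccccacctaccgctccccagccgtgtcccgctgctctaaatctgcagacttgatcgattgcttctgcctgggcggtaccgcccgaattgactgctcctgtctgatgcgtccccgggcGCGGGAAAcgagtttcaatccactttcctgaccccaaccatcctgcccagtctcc
In MCM6 a pair of overlapping matches, 1 on each strand, occurs at -152 and -148 and again at -90 and -86 from the start, and MCM3 has single matches at -174 and -4. The members with a match had median log2 folds of 0.12 with siRNA 1 and 0.24 with siRNA 2, and the 24 without had 0.03 and 0.14. Of the 19 with a match, 12 lay above the control in both libraries and 4 below, MCM6 with its 4 matches among the latter. Of the 24 without, 12 lay above in both and 6 below, TIMELESS among the former. Over all genes tested these shares were 37.8% above and 34.5% below. The part of the motif in these values was not tested.

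Genes that regulate or accompany replication were described from lists of the same kind. In the G1/S list of 25 genes, 7 lay above the control in both knockdown libraries and 9 below, and 1 was called: CCND1, cyclin D1, which stood at 2178 CPM in the control, 686 CPM with siRNA 1 and 882 CPM with siRNA 2 (log2 fold -1.48, SE 0.21, adjusted p = 0.0427, limma). CDKN1A, the cyclin-dependent kinase inhibitor p21, stood at 477, 165 and 208 CPM and narrowly missed the threshold (adjusted p = 0.0643, limma). E2F1, a transcription factor known to activate many replication genes, stood at 33.5, 68.2 and 52.0 CPM (adjusted p = 0.281), and its partner gene TFDP1 at 207, 346 and 366 CPM (adjusted p = 0.188). CCND1 and CDKN1A were thus highest in the control, and E2F1 and TFDP1 lowest there, an order that 34.5% and 37.8% of all genes show in this design. Its call depended on the settings: CCND1 was also called with either other pseudocount, with upper-quartile scaling over the genes tested, with DESeq2 and with edgeR after filterByExpr. It was not called without a filter, with a 5 CPM filter, with TMM or upper-quartile scaling over all genes, with TMM over the genes tested, without a trend or with edgeR on the same genes, at adjusted p-values of 0.0681 to 0.566, while its log2 fold over all these settings stayed between -1.52 and -1.48.

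In the list of proteins that control licensing and firing, 8 of 17 lay above the control in both libraries and 2 below, where 37.8% and 34.5% of all genes did. By limma, 0 were called. None of the 5 lists from here to the nucleotide synthesis genes had a gene called by limma, edgeR or DESeq2. At an unadjusted limma p under 0.05, 0 of these 17 genes were higher or lower, where 6.95% and 4.45% of all genes were. DTL, the adaptor of the ligase that destroys CDT1 in S phase, stood at 43.8, 53.6 and 69.9 CPM, and FBXO5, which protects geminin from destruction, at 76.0, 91.1 and 101 CPM. MCMBP, a binding partner of MCM proteins, stood at 209, 159.9 and 164 CPM, below the control in both.

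Other fork proteins had 10 of 21 genes above the control in both libraries and 4 below, where 37.8% and 34.5% of all genes lay. At an unadjusted limma p under 0.05 there were 0, where 6.95% of all genes were higher and 4.45% lower. RNASEH2A, the catalytic subunit of the enzyme that removes ribonucleotides from DNA, stood at 37.4, 49.5 and 53.0 CPM, and the exonuclease gene EXO1 at 35.6, 47.5 and 49.97 CPM. In the checkpoint list, 3 of 11 lay above and 5 below, against the same shares of all genes, also with 0 at an unadjusted p under 0.05. ETAA1, an activator of the ATR kinase, stood at 11.99, 17.1 and 18.6 CPM, RAD17, which loads the checkpoint clamp, at 20.5, 30.1 and 27.1 CPM, and HUS1, a part of that clamp, at 21.8, 18.2 and 15.1 CPM. HUS1 and RAD17 lay on opposite sides of the control, at adjusted p-values of 0.681 and 0.567 (limma).

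Chromatin assembly at the fork had 7 of 10 genes above the control in both libraries and 2 below, where 37.8% and 34.5% of all genes lay. Its median log2 folds were 0.22 and 0.35. At an unadjusted limma p under 0.05, 2 genes were higher, where 6.95% of all genes were. The histone chaperone genes NASP and ASF1A stood at 259, 403 and 339.5 CPM and at 32.9, 48.2 and 46.5 CPM, and SUPT16H, a subunit of the FACT complex, at 329, 472 and 451 CPM. In the list of other nucleotide synthesis genes, 13 of 22 lay above and 5 below, against the same shares of all genes. At an unadjusted limma p under 0.05, 2 were higher and 2 lower, where 6.95% and 4.45% of all genes were. IMPDH1, an enzyme of guanine nucleotide synthesis, stood at 129, 66.1 and 71.3 CPM. SAMHD1, which breaks down deoxynucleotides, stood at 42.7, 28.7 and 27.3 CPM, lowest with knockdown.

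Mitotic genes, taken as a marker list for cells in another phase of the cycle, lay above the control in both libraries for 17 of 20 genes and below it for 1, where 37.8% and 34.5% of all genes did, with median log2 folds of 0.19 and 0.40. BIRC5, survivin, stood at 64.9, 165 and 172 CPM (log2 fold 1.37, adjusted p = 0.0602, limma). CENPF and CENPE, which act at kinetochores, stood at 164, 304 and 328 CPM and at 80.4, 120.2 and 119 CPM. Of the 20, 0 were called by limma or edgeR, 1 was called higher by DESeq2 (BIRC5), and 5 were higher at an unadjusted limma p under 0.05, where 6.95% of all genes were. The summed level of this list was 3880 CPM in the control, 4497 CPM with siRNA 1 and 5233 CPM with siRNA 2, in the same order as that of the replication genes, and its part in their values was not tested.

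**Figure D4:**
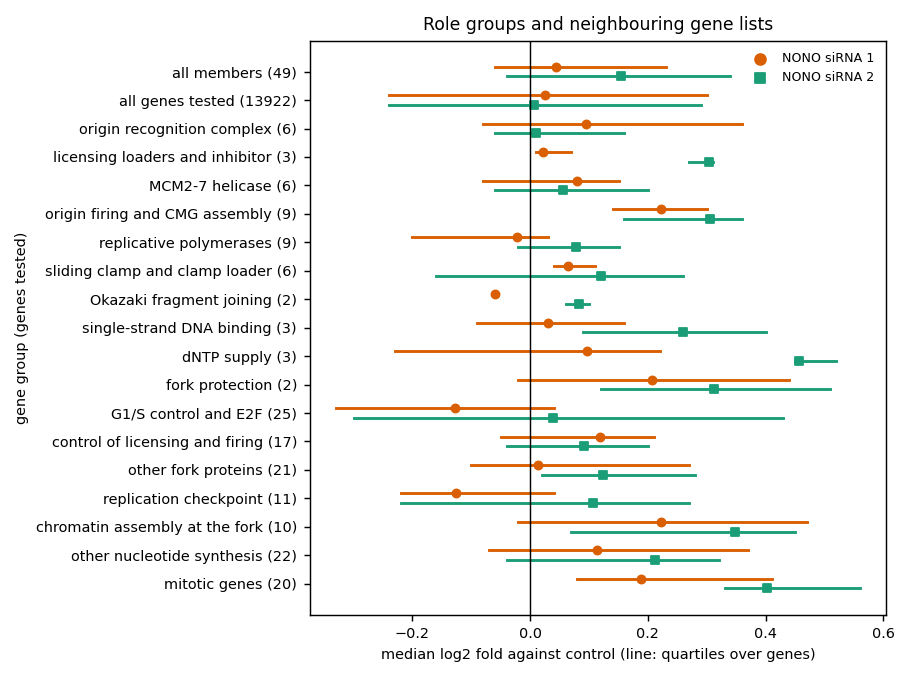
Median log2 fold against the control on the log2(CPM + 1) scale for each role group of replication genes and each neighbouring list (number of genes tested in brackets), with circles for siRNA 1, squares for siRNA 2 and lines for the quartiles over genes. Origin firing lies at 0.22 and 0.30 and the mitotic list at 0.19 and 0.40, while all genes tested lie at 0.03 and 0.01.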

How the data were processed

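The authors deposited 1 table per library with CPM values per Ensembl gene, read counts normalized by the authors to library size; the values themselves show this unit and hold no length normalization. Per the submitters' processing notes, the tools were bcl2fastq 2.19.1, HISAT2 2.1.0 and HTSeq 0.6.1, with hg19 and GRCh37 as builds; which annotation and strand setting were counted is not given in the sources used here. Nearly every value was a whole number of reads times the CPM of a single read, to within 0.01 reads (99.3% of the control's, 99.3% of siRNA 1's and 99.5% of siRNA 2's values), which gives the read totals; 147, 147 and 117 genes at 0.5 of a read were taken as 0 reads. Of 21308 genes in all 3 tables, the 13922 that reached 1 CPM in any library were tested.

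Groups were compared with limma 3.58.1, trend on, in R 4.3.3, two-sided, 2 NONO libraries against 1 control library. The fit had 1 residual and 7.68 prior degrees of freedom. It assumes that the lone control varies like the NONO libraries, which 1 control library cannot show. The values entered the fit as log2(CPM + 1). Fold changes are on that scale, which understates the change of low genes. On the recovered reads of the same genes, edgeR 4.0.16 called 1 gene and DESeq2 1.42.0 called 207. Ratio intervals are exact binomial at 95%. Names were taken from the supplied name table (21049 IDs matched), lengths, coordinates and transcripts from GENCODE 29 on GRCh38 (21182 IDs matched), and promoters from RefSeq, so coordinates differ in build from the notes' hg19. Promoters of GINS4, MCM4, MCM5, POLD3, RPA2 and RPA3 were not used here.

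The members and lists were chosen with earlier results of these data known. All members are named; from each list, every called gene was named and up to 3 genes with the largest smaller fold among those on the same side of the control in both libraries with a mean of at least 5 CPM, and CDKN1A and E2F1 as known regulators. RTEL1 (at most 0.595 CPM) and ATRIP (at most 0.17 CPM) fell under the filter. A gene and a sequence that these rules select are not reported here.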

Additional observations from a re-analysis of the deposited data

How the results depend on the processing

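With every alternative tried (pseudocounts 0.1 and 5, no filter, a 5 CPM filter, TMM and upper-quartile scaling, limma without a trend, edgeR, DESeq2, and, chosen after seeing the data, edgeR with filterByExpr and both scalings over the genes tested), 0 of 49 members were called and 1 had an unadjusted p under 0.05. Calls over all genes were 19 higher and 11 lower in limma as reported, 16 and 10 with pseudocount 0.1, 28 and 27 with pseudocount 5, 0 and 0 without a filter, 2 and 3 with a 5 CPM filter or with TMM or upper-quartile factors from all genes, 1 and 3 with TMM factors from the genes tested, 161 and 80 with upper-quartile factors from the genes tested, 0 and 3 without a trend, 0 and 1 in edgeR, 143 and 64 in DESeq2, and 86 and 70 in edgeR with filterByExpr on 16963 genes. The prior degrees of freedom of limma were 16.7 with upper-quartile factors from the genes tested and ran from 2.52 to 7.88 in its other settings.

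The members' mean log2 folds changed sign only where they were within 0.055 of 0: MCM7 came to -0.011, LIG1 to -0.002 and RPA1 to -0.011 with TMM, RRM2 to 0.012 with edgeR and 0.012 with DESeq2, and with filterByExpr MCM7 came to -0.003 and RRM2 to 0.004. Members 1.5-fold above the control with siRNA 2 numbered 1 with pseudocount 5, and members 1.5-fold below it with siRNA 1 numbered 2 with TMM. TMM put 24 members above and 13 below the control in both libraries, with medians of 0.010 and 0.123, and upper-quartile scaling 25 and 12, with 0.019 and 0.140. The shares of all genes under these scalings are not given here. The median of the mean log2 folds was 0.10 over members and 0.01 over all genes as reported. It was 0.07 and -0.02 with TMM, and 0.08 and -0.01 with upper-quartile scaling. BIRC5 and CDKN1A were called by DESeq2 and by edgeR with filterByExpr, both also with upper-quartile factors from the genes tested, as was CENPF (adjusted p = 0.0489, limma), and BIRC5 with pseudocount 5 (adjusted p = 0.0495, limma). Leaving out a NONO library leaves no residual degree of freedom and gives the other siRNA's fold, so it tests nothing. No paired analysis was possible because the control group has 1 library and its label carries no replicate number. The depth limits counting precision little; 2 knockdown libraries and 1 control library limit the test.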
